A study of Homo sapiens with 9 samples.

Results

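A set of 10 genes of iron handling, built around ceruloplasmin (*CP*), was followed through the *TUG1* knockdown of HepG2 cells. The genes were chosen by symbol (*CP*, *TF*, *TFRC*, *TFR2*, *FTH1*, *FTL*, *SLC40A1*, *SLC11A2*, *ACO1* and *IREB2*), with the fold changes of both knockdown lines against the control line already known, so the values of these 10 genes are given as a description and no test is drawn from them. All 10 were listed in both count tables, among 12854 genes that both tables hold, and none was removed by a filter on low counts. HepG2 is an established line of human liver cancer cells with an epithelial-like form. It was grown in low-glucose DMEM with fetal bovine serum. Every line carried a lentiviral Tet-pLKO-Puro vector that makes a short hairpin RNA when doxycycline is given. The control line sh-Con carried a control hairpin and is labelled WT, and the lines sh1-*TUG1* and sh2-*TUG1* each carried a different hairpin against the long non-coding RNA *TUG1*. Each group is thus 1 cell line with 3 libraries, which the study describes as technical replicates, so the spread between libraries does not include the spread between independently made lines, and the hairpin cannot be told apart from the line that carries it. The doxycycline dose and time for these libraries are not given in the sources used here. *TUG1* itself was not analysed here, so the labels were not checked against it.

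Iron reaches a hepatocyte mainly bound to transferrin (*TF*), the iron carrier of plasma, which hepatocytes themselves secrete. Transferrin receptor 1 (*TFRC*) takes the loaded carrier into endosomes, where *SLC11A2* (DMT1) moves iron into the cytosol, and surplus iron is stored in shells of ferritin heavy and light chains (*FTH1*, *FTL*). Ferroportin (*SLC40A1*) is the iron exporter, and ceruloplasmin, a copper-carrying ferroxidase of plasma, oxidizes the exported iron so that transferrin can bind it. Iron regulatory proteins 1 and 2 (*ACO1*, *IREB2*) bind hairpins called iron-responsive elements (IREs) when iron is scarce. A bound IRE in the 5′ untranslated region (UTR) blocks translation, and bound IREs in the 3′ UTR of *TFRC* slow the decay of the mRNA. Transferrin receptor 2 (*TFR2*) senses transferrin iron in liver and feeds into the control of hepcidin (*HAMP*), the hormone that removes ferroportin from the cell surface.

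The IREs of the members are printed because they are the sequence feature through which the iron regulatory proteins act on this set. The annotated UTRs of 11722 genes (GRCh38, GENCODE release 29) were searched on the transcribed strand for a C, 5 bases, the loop CAGTGN and 5 bases that pair with the first 5, with G-U pairs allowed. A match lay in the 5′ UTR of 21 genes (0.179%) and in the 3′ UTR of 97 genes (0.828%), and only 2 genes (0.017%) had at least 3 matches in a 3′ UTR, *TFRC* with 4 being among them. The elements of *FTH1* (chr11:61967575-61967601, minus strand), *FTL* (chr19:48965336-48965362, plus strand) and *SLC40A1* (chr2:189580662-189580688, minus strand) lie in 5′ UTRs, and those of *TFRC* in the 3′ UTR on the minus strand (chr3:196050464-196050490, chr3:196050511-196050537, chr3:196050576-196050602 and chr3:196050980-196051006). They are given 5′ to 3′ in that order, with the loop in capitals.
FTH1: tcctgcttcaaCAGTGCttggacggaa
FTL: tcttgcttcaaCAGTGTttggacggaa
SLC40A1: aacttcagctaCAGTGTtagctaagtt
TFRC element 1: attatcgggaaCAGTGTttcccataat
TFRC element 2: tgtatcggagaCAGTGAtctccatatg
TFRC element 3: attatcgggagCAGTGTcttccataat
TFRC element 4: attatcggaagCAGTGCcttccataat

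*TF* also held 1 match, in a 3′ UTR of 18020 bases of 1 transcript. The search found no match in the UTRs of the other 5 members. *SLC11A2* was among these, though it is in the list of mRNAs known to carry IREs used below. The result says only that no loop with a fully paired stem of 5 bases was in the annotated windows. An element with an unpaired base in that stem would not have been found. The study asks about sponging of miR-122-5p, so the 3′ UTRs were also searched for ACACTCC, the reverse complement of the seed of that miRNA. Its mature sequence (RefSeq) is given with the seed in capitals.
hsa-miR-122-5p: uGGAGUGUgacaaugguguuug

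The seed match lay in the 3′ UTR of 1088 of the 11722 genes (9.28%) and in that of 1 of the 10 members, *SLC11A2* (chr12:50981518-50981524, minus strand). The longest annotated 3′ UTR of *CP* (1215 bases) held none.

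Levels are given as CPM, which are read counts set to a common library size after scaling by the trimmed mean of M values (TMM). The 9 libraries held 33054291 to 39393293 counts, with TMM factors of 0.974 to 1.02, and members had between 990 (*ACO1*) and 270473 (*TF*) counts in a library. The liver character of the cells was visible in all groups, with all 10 hepatocyte-like markers listed and summing to 34264 to 36299 CPM in sh-Con, 41840 to 43579 in sh1-*TUG1* and 45002 to 47587 in sh2-*TUG1*. *ALB*, the largest of them, was at means of 13505, 18457 and 25387 CPM, and the markers did not all move together. By an edgeR adjusted p under 0.05, *ALB*, *AFP* and *FGB* were higher in both lines and *SERPINA1* was lower in both. *APOB*, *TTR* and *FGA* were higher in sh1-*TUG1* only, and *APOA1*, *TTR* and *HNF4A* were lower in sh2-*TUG1* only. Markers of other cell types were few: 1 of 5 fibroblast markers (*PDGFRB*, 19.3 to 21.8 CPM in sh-Con, 31.9 to 34.4 in sh1-*TUG1* and 53.1 to 58.5 in sh2-*TUG1*), 1 of 5 leukocyte markers (*CD68*, 59.2 to 71.8, 33.7 to 37.4 and 17.6 to 24.0 CPM) and 2 of 4 endothelial markers, whose sum rose from 8.75 to 9.46 CPM in sh-Con to 11.3 to 12.2 in sh1-*TUG1* and 12.2 to 13.6 in sh2-*TUG1*. These sums move with the groups, and their part in the values of the iron genes was not tested.

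Against sh-Con, 8 of the 10 iron genes had a log2(fold change) below 0 in each line, with *CP* the furthest down. A gene was called differentially expressed (DEG) when its fold change was over 1.5 and its adjusted p under 0.05 in a fit over all genes. By this rule 2 of the 10 members were lower in sh1-*TUG1* (*CP* and *TF*) and 0 higher, where 4.96% of all 13017 genes were called. In sh2-*TUG1*, 1 of the 10 was lower (*CP*) and 0 higher, beside 13.3% of 12953 genes. By the adjusted p alone 6 of 10 passed in sh1-*TUG1* (*CP*, *TF*, *TFRC*, *FTH1* and *SLC40A1* lower, with *TFR2* higher, beside 24.8% of all genes), and 6 of 10 passed in sh2-*TUG1* (*CP*, *TF*, *TFRC*, *FTL*, *SLC40A1* and *ACO1*, all lower, beside 43.5% of all genes). The median log2(fold change) of the 10 was -0.15 for sh1-*TUG1* and -0.33 for sh2-*TUG1*, and the medians over all genes were 0.0027 and -0.0048. Both comparisons use the same 3 sh-Con libraries. When the fold change was itself tested against 1.5, only *CP* remained called in sh1-*TUG1*.

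The libraries of the 2 groups did not overlap for 6 of 10 members in sh1-*TUG1* against sh-Con (41.7% of all genes) and for 6 of 10 in sh2-*TUG1* against sh-Con (54.5%). Between the lines, in a fit of all 9 libraries, 0 of 10 members met the DEG rule (10.6% of all genes), 3 passed the adjusted p alone (*CP* and *ACO1* lower and *TF* higher in sh2-*TUG1*, beside 42.7% of all genes) and 5 did not overlap (*CP*, *FTL* and *ACO1* lower, *TF* and *FTH1* higher, beside 55.4%). In a fit of the 6 knockdown libraries alone, *TFR2*, *FTH1* and *FTL* also passed the adjusted p, which made 6. The plot of fold changes shows *CP* apart from the other 9 genes in both lines.

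**Figure D1:**
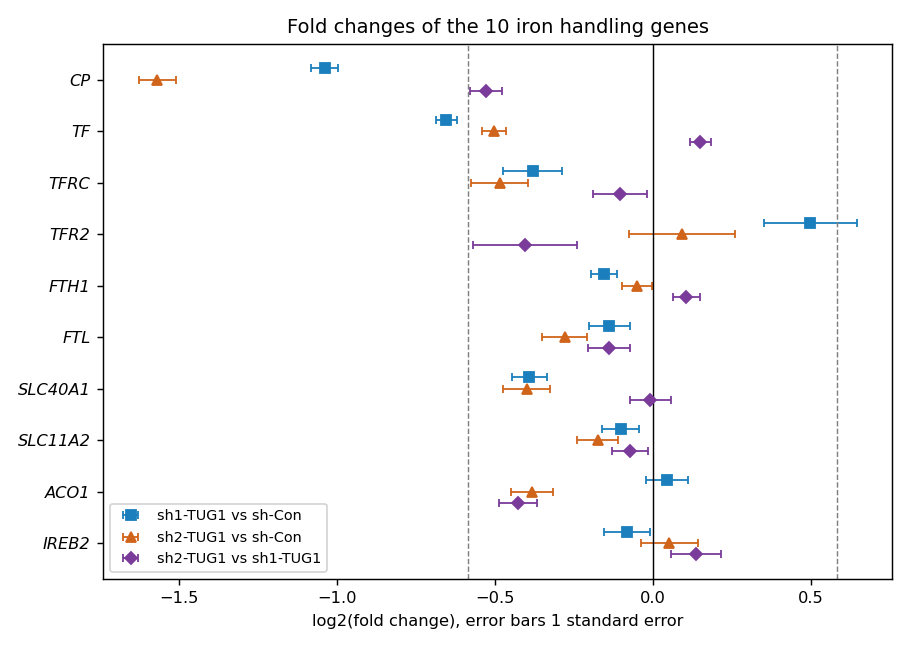
Log2(fold change) of the 10 iron handling genes in sh1-*TUG1* against sh-Con (squares), sh2-*TUG1* against sh-Con (triangles) and sh2-*TUG1* against sh1-*TUG1* (diamonds), with error bars of 1 standard error and dashed lines at a fold change of 1.5. *CP* lies at -1.04 and -1.57, and *TF* at -0.65 and -0.50, against sh-Con.

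*CP*, the plasma ferroxidase (chromosome 3, 149162410 to 149222055, minus strand), lost more than any other member in both lines. Its level was 381, 378 and 355 CPM in the sh-Con libraries, 184, 181 and 178 for sh1-*TUG1* and 121, 121 and 135 for sh2-*TUG1*. The 3 groups were fully separated, in the order sh-Con, sh1-*TUG1*, sh2-*TUG1*. The means were 371 ± 14.3, 181 ± 3.13 and 125 ± 8.08 CPM (SD, n = 3), so that *CP* fell by 51.3% in sh1-*TUG1* and fell by 66.3% in sh2-*TUG1*. On the log2 scale the fold change was -1.04 ± 0.0428 (SE) and -1.57 ± 0.0581. The difference of sh2-*TUG1* from sh1-*TUG1* was -0.53 ± 0.0503, short of a fold change of 1.5, but reached -0.59 and met the DEG rule when scaled by library size alone or without sh2-*TUG1* replicate 3. *HPS3*, which overlaps *CP* on the other strand, did not pass the test in either line (log2(fold change) -0.084, edgeR adjusted p = 0.505, and -0.022, adjusted p = 0.854). Whether the counting used strand is not given in the sources used here, and in bulk RNA fewer expressing cells and less RNA per cell cannot be told apart.

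*TF*, the plasma iron carrier (chromosome 3, 133745956 to 133796640, plus strand), was also lower in both lines, and here sh1-*TUG1* was the lower. Its level was 7606, 7381 and 7245 CPM in sh-Con, 4679, 4761 and 4710.2 for sh1-*TUG1* and 5185, 5159.8 and 5371 for sh2-*TUG1*. No library of one group reached the range of another, and the order was sh-Con, sh2-*TUG1*, sh1-*TUG1*, unlike that of *CP*. The means were 7411 ± 182, 4717 ± 41.4 and 5239 ± 116 CPM (SD, n = 3). Transcripts fell by 36.4% in sh1-*TUG1* and fell by 29.4% in sh2-*TUG1*, with log2(fold change) of -0.65 ± 0.0323 (SE) for sh1-*TUG1* and -0.50 ± 0.0384 for sh2-*TUG1*. The difference between the lines was 0.15 ± 0.0329. *TF* transcripts alone made up 0.732 to 0.754% of all counts in sh-Con, 0.477 to 0.486% in sh1-*TUG1* and 0.503 to 0.526% in sh2-*TUG1*. *SRPRB*, which overlaps *TF* on the same strand and encodes a subunit of the signal recognition particle receptor, was lower in sh1-*TUG1* (-0.17, edgeR adjusted p = 0.0169) and higher in sh2-*TUG1* (0.19, adjusted p = 0.0105).

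Because *CP* and *TF* moved by different amounts, the ratio of their counts changed in steps. *TF* had 20.0, 19.5 and 20.4 counts per *CP* count in the sh-Con libraries, 25.5, 26.3 and 26.5 in sh1-*TUG1* and 43.0, 42.7 and 39.9 in sh2-*TUG1*, so that the 3 groups did not overlap. In the panels of levels by library, *CP* and *TF* are the genes whose 3 groups are all separated.

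**Figure D2:**
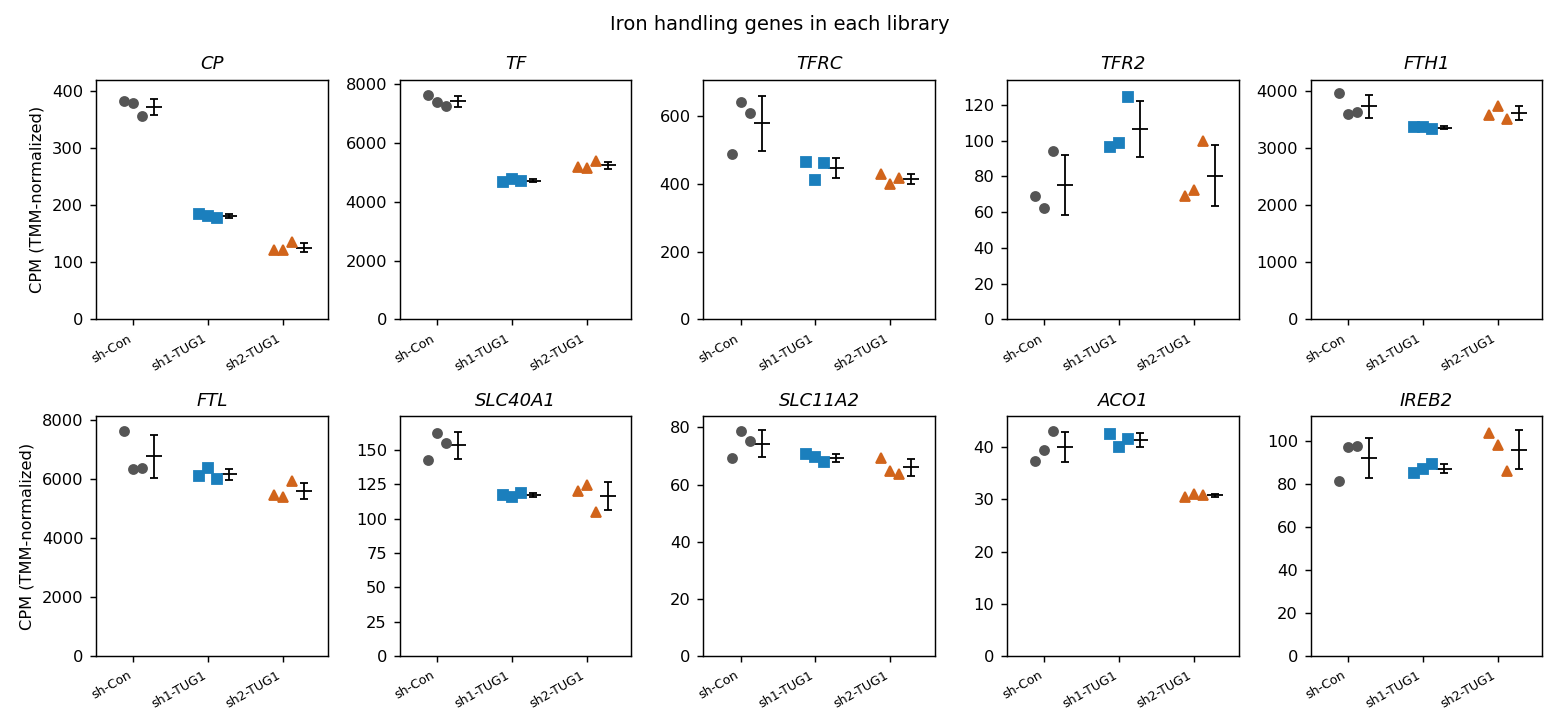
Level of each iron handling gene in CPM (linear axis from 0, its own range in each panel) in the 3 libraries of sh-Con (circles), sh1-*TUG1* (squares) and sh2-*TUG1* (triangles), with the mean and SD of each group beside the points. The 3 groups are separated for *CP* and *TF*, only sh2-*TUG1* is below sh-Con for *ACO1*, and all 3 groups overlap for *IREB2*.

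Of the transferrin receptors, *TFRC* was lower in both lines. *TFRC*, the general receptor for transferrin iron (chromosome 3, 196027183 to 196082189, minus strand), was at 487, 639.5 and 609.9 CPM in sh-Con, 463, 412 and 461 for sh1-*TUG1* and 429, 398 and 416 for sh2-*TUG1*. Every knockdown library was below every sh-Con library, sh-Con replicate 1 being the nearest, and the lines overlapped each other. The means were 579 ± 81.1, 445 ± 29.1 and 415 ± 15.4 CPM (SD, n = 3). Log2(fold change) was -0.38 ± 0.0931 (SE) for sh1-*TUG1* and -0.48 ± 0.0906 for sh2-*TUG1*. The fall in sh1-*TUG1* no longer passed an adjusted p under 0.05 without sh-Con replicate 2 or sh1-*TUG1* replicate 2, and without sh-Con replicate 1 the fall in sh2-*TUG1* reached -0.59 and met the DEG rule.

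*TFR2*, the liver sensor of transferrin iron (chromosome 7, 100620416 to 100642779, minus strand), was the 1 member that was higher in sh1-*TUG1* by the adjusted p. Its level was 69.3, 62.2 and 94.4 CPM in sh-Con, 96.6, 98.7 and 124 for sh1-*TUG1* and 69.1, 72.3 and 100.04 for sh2-*TUG1*. The sh1-*TUG1* libraries lay above those of sh-Con by a narrow margin, replicate 3 was the highest library of each group, and sh2-*TUG1* overlapped both. Means were 75.3 ± 16.9, 107 ± 15.5 and 80.5 ± 17.02 CPM (SD, n = 3), with log2(fold change) of 0.50 ± 0.15 (SE) in sh1-*TUG1*, 0.093 ± 0.17 in sh2-*TUG1* and -0.40 ± 0.17 between the lines. The call in sh1-*TUG1* rested on all libraries: it was lost with DESeq2 and without any one of 5 of the 6 libraries, and without the sixth, sh-Con replicate 3, the value rose to 0.69 and met the DEG rule. *TFR2* had 0.142, 0.0973 and 0.155 counts per *TFRC* count in sh-Con, 0.209, 0.240 and 0.270 in sh1-*TUG1* and 0.161, 0.181 and 0.240 in sh2-*TUG1*. Both lines thus had a higher ratio than every sh-Con library.

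The importer of endosomal iron did not pass the adjusted p in either line. *SLC11A2* (DMT1; chromosome 12, 50979401 to 51028566, minus strand) was at 69.2, 78.6 and 75.1 CPM in sh-Con, 70.6, 69.7 and 67.8 for sh1-*TUG1* and 69.2, 64.9 and 63.9 for sh2-*TUG1*. Both lines overlapped sh-Con, where replicate 1 was the low library. Log2(fold change) was -0.10 ± 0.0591 (SE) for sh1-*TUG1* and -0.17 ± 0.0645 for sh2-*TUG1*, on means of 74.3 ± 4.73, 69.4 ± 1.41 and 65.99 ± 2.87 CPM (SD, n = 3). Without sh-Con replicate 1 the values were -0.15 and -0.22, and both then passed an adjusted p under 0.05. In sh2-*TUG1* it also passed with DESeq2, with library size alone and in a fit of all 9 libraries.

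*SLC40A1*, which encodes the iron exporter ferroportin (chromosome 2, 189560579 to 189583758, minus strand), fell by nearly the same amount in both lines. It was at 143, 162 and 155 CPM in sh-Con, 117, 116 and 119 for sh1-*TUG1* and 120.3, 125 and 105 for sh2-*TUG1*. All 6 knockdown libraries were below the 3 sh-Con libraries. The means were 153 ± 9.72, 117 ± 1.72 and 117 ± 10.2 CPM (SD, n = 3), with log2(fold change) of -0.39 ± 0.0543 (SE) for sh1-*TUG1* and -0.40 ± 0.0737 for sh2-*TUG1*. Between the lines it was -0.0074 ± 0.0649. The transcripts of ceruloplasmin, the oxidase, and of ferroportin, the exporter, were therefore both lower in both lines, though *CP* by far more. Protein was not measured in these libraries.

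The ferritin subunits were called in different lines. *FTH1*, the heavy chain with the ferroxidase site (chromosome 11, 61959718 to 61967660, minus strand), was at 3967, 3604 and 3636 CPM in sh-Con, 3379, 3364 and 3333 for sh1-*TUG1* and 3586, 3747 and 3519 for sh2-*TUG1*. The sh1-*TUG1* libraries were below all others, and sh2-*TUG1* overlapped sh-Con. Means were 3735 ± 201, 3359 ± 23.3 and 3617 ± 117 CPM (SD, n = 3), and log2(fold change) was -0.15 ± 0.0411 (SE) and -0.049 ± 0.0479. The call in sh1-*TUG1* was lost when any 1 of the 3 sh1-*TUG1* libraries was left out.

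*FTL*, the light chain that favours mineral formation (chromosome 19, 48965301 to 48966878, plus strand), was lower in sh2-*TUG1*. Its level was 7608, 6326 and 6352 CPM in sh-Con, 6109, 6363 and 5978 for sh1-*TUG1* and 5448, 5401 and 5911 for sh2-*TUG1*. sh2-*TUG1* lay below every sh-Con and sh1-*TUG1* library, sh1-*TUG1* overlapped sh-Con, and sh-Con replicate 1 was high. The means were 6762 ± 733, 6149.7 ± 196 and 5586 ± 282 CPM (SD, n = 3), with log2(fold change) of -0.14 ± 0.0647 (SE) and -0.28 ± 0.0710. The call in sh2-*TUG1* was lost without sh2-*TUG1* replicate 1.

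The 2 chains of one protein shell can be set against each other within a library. *FTH1* had 0.521, 0.570 and 0.572 counts per *FTL* count in sh-Con, 0.553, 0.529 and 0.558 in sh1-*TUG1* and 0.658, 0.694 and 0.595 in sh2-*TUG1*. Every sh2-*TUG1* library was above all 6 others. The annotation names 25 pseudogenes of *FTH1* and 16 of *FTL*, with which reads can be shared, so both levels are uncertain. *BEST1*, which overlaps *FTH1* on the other strand, had between 254 and 4986 counts with no order by group, against at least 115372 for *FTH1*.

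**Figure D3:**
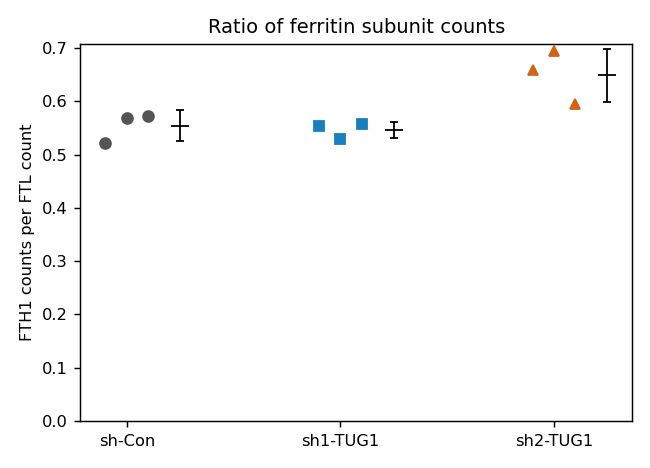
*FTH1* counts per *FTL* count (linear axis from 0) in each library of sh-Con (circles), sh1-*TUG1* (squares) and sh2-*TUG1* (triangles), with the mean and SD of each group. sh2-*TUG1* lies at 0.595 to 0.694, above the other libraries, which lie between 0.521 and 0.572.

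Of the iron regulatory proteins, *ACO1* was lower in sh2-*TUG1*. *ACO1* (IRP1, which doubles as the cytosolic aconitase; chromosome 9, 32384603 to 32454769, plus strand) was at 37.4, 39.5 and 43.05 CPM in sh-Con, 42.5, 39.96 and 41.5 for sh1-*TUG1* and 30.5, 31.1 and 30.7 for sh2-*TUG1*. The sh2-*TUG1* libraries lay within 1 CPM of each other and below all the rest, and sh1-*TUG1* overlapped sh-Con. Means were 39.99 ± 2.85, 41.3 ± 1.29 and 30.8 ± 0.307 CPM (SD, n = 3). Log2(fold change) was 0.045 ± 0.0654 (SE) in sh1-*TUG1*, -0.38 ± 0.0666 in sh2-*TUG1* and -0.43 ± 0.0594 between the lines.

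*IREB2* (IRP2, which is degraded when iron is plentiful; chromosome 15, 78437431 to 78501456, plus strand) did not separate the groups. It was at 81.5, 97.5 and 97.8 CPM in sh-Con, 85.4, 87.3 and 89.2 for sh1-*TUG1* and 104, 98.1 and 86.02 for sh2-*TUG1*. All groups overlapped, and sh-Con replicate 1 was the lowest library. Log2(fold change) was -0.082 ± 0.0724 (SE) and 0.053 ± 0.0893, on means of 92.3 ± 9.30, 87.3 ± 1.92 and 95.98 ± 9.09 CPM (SD, n = 3).

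Levels were compared between genes per kilobase of coding sequence. In sh-Con the order was *FTL* (12807 CPM per coding kb), *FTH1* (6767), *TF* (3534), *TFRC* (253), *CP* (116), *SLC40A1* (89.4), *SLC11A2* (44.1), *IREB2* (31.9), *TFR2* (31.3) and *ACO1* (15.0), and only *IREB2* and *TFR2* overlapped as neighbours. *CP* changed place: in sh1-*TUG1* it was at 56.6 CPM per coding kb, below *SLC40A1* at 68.3, and in sh2-*TUG1* at 39.2, overlapping *SLC11A2* at 39.1. The 10 genes together took 1.89 to 2.03% of all counts in sh-Con, 1.54 to 1.58% in sh1-*TUG1* and 1.48 to 1.54% in sh2-*TUG1*. Most of that share was *TF*, *FTL* and *FTH1*.

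Read by IRE, the members of each kind did not share 1 size of change. Of 9 mRNAs known to carry IREs, 8 were tested, 4 were lower by the adjusted p in each line and 0 higher (50%, beside 24.8% and 43.5% of all genes), with median values of -0.15 in sh1-*TUG1* and of -0.23 in sh2-*TUG1*. For sh1-*TUG1* the lower ones were *TFRC*, *FTH1*, *SLC40A1* and *EPAS1*, and in sh2-*TUG1* *TFRC*, *FTL*, *SLC40A1* and *EPAS1*. *TFRC*, with its 3′ UTR elements, and *SLC40A1*, with its 5′ UTR element, were thus lower together, while *FTH1* and *FTL*, also with 5′ UTR elements, had values nearer 0. Outside the members, *EPAS1*, the oxygen-regulated subunit HIF-2α, was lower (-0.18, edgeR adjusted p = 0.0150, in sh1-*TUG1* and -0.30, adjusted p = 0.000672, in sh2-*TUG1*).

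The genes whose pattern over the 9 libraries was most like that of *CP* were sought by the root mean square difference in log2 CPM after centring on the sh-Con mean. The nearest were *CHST15*, a sulfotransferase (0.082, with log2(fold change) of -1.02 for sh1-*TUG1* and -1.46 for sh2-*TUG1*), *RIN2* (0.091; -1.16 and -1.52), *LOX*, the copper-dependent lysyl oxidase (0.096; -1.08 and -1.43), *PFKFB4*, a glycolytic regulator (0.10; -0.93 and -1.59), and *UNC93A* (0.13; -1.15 and -1.53). None is an iron gene of the lists used here.

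Around the 10 members, 97 further genes of iron, haem and copper handling were listed and 86 were tested. In sh1-*TUG1*, 4 were higher and 3 lower by the DEG rule (8.14% of the 86, beside 4.96% of all genes), and 20 were higher and 10 lower by the adjusted p (34.9%, beside 24.8%). In sh2-*TUG1*, 3 were higher and 10 lower (15.1%, beside 13.3%), and 18 were higher and 23 lower by the adjusted p (47.7%, beside 43.5%). Their median was 0.067 for sh1-*TUG1* and -0.0099 for sh2-*TUG1* on the log2(fold change) scale. The share called in sh2-*TUG1* was near the background. For the genes that follow, values are log2(fold change) against sh-Con, sh1-*TUG1* first, with edgeR adjusted p over all genes of the table.

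**Figure D4:**
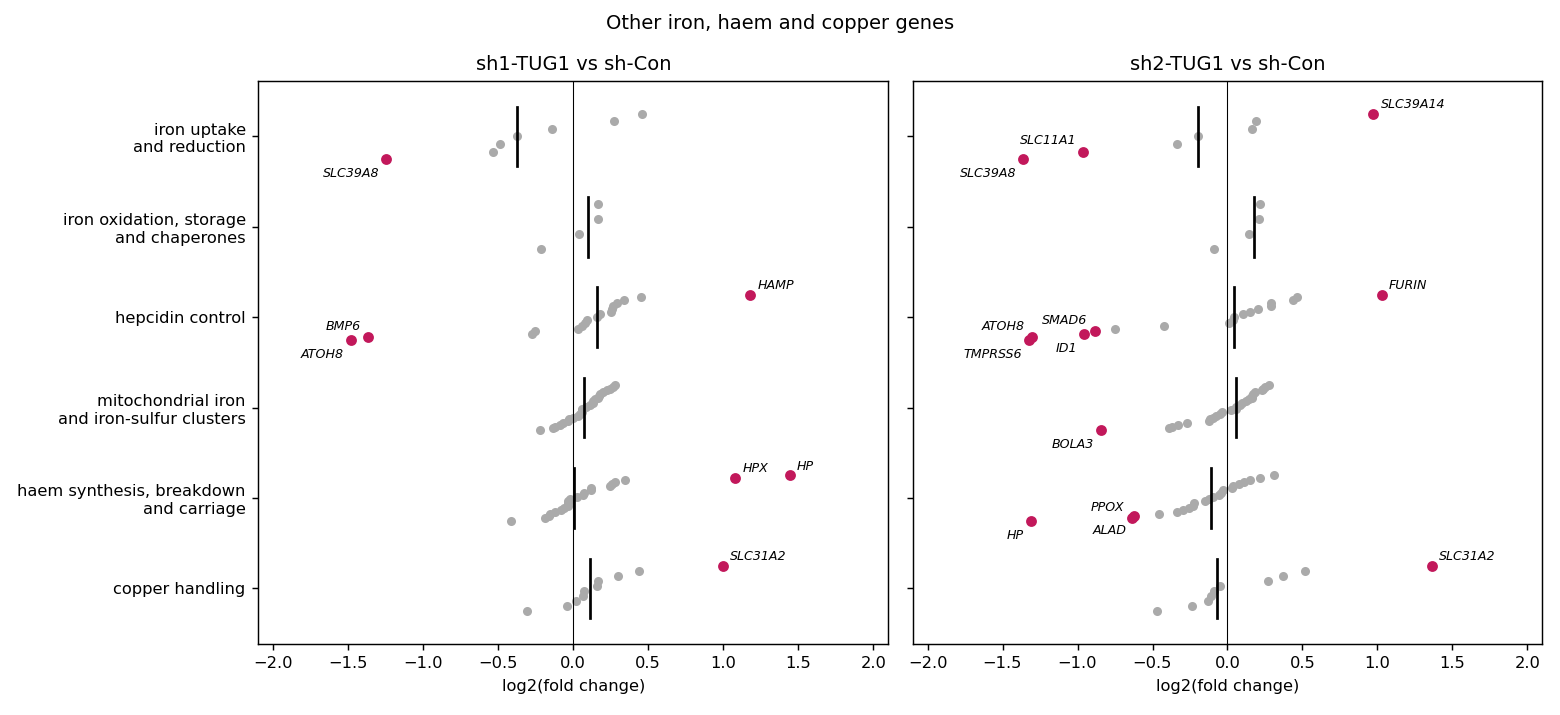
Log2(fold change) of 86 further iron, haem and copper genes in sh1-*TUG1* (left) and sh2-*TUG1* (right) against sh-Con, 1 point a gene, in 6 lists with a bar at each list's median. Named points in magenta met the DEG rule: 7 genes for sh1-*TUG1* and 13 for sh2-*TUG1*.

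Of 7 tested genes of iron uptake and reduction, 1 was lower by the DEG rule in sh1-*TUG1* (14.3%, beside 4.96% of all genes). In sh2-*TUG1* 1 was higher and 2 were lower (42.9%, beside 13.3%). *SLC39A14* (ZIP14), the liver importer of iron that is not bound to transferrin, was at 955, 1148 and 1188 CPM in sh-Con, 1498, 1514 and 1519 for sh1-*TUG1* and 2257, 2217 and 1999 for sh2-*TUG1*. The 3 groups were separated and it rose in both lines, by 0.46 (adjusted p = 0.00158) and 0.97 (adjusted p = 1.98e-05) in edgeR's test, and sh2-*TUG1* was above sh1-*TUG1* by 0.51 (adjusted p = 0.000151). In both lines *TF* and *TFRC* were lower, while *TFR2* was higher in sh1-*TUG1* by the adjusted p. How these changes relate to that of *SLC39A14* was not tested. Its relative *SLC39A8* (ZIP8) had few counts, at means of 1.40, 0.585 and 0.542 CPM, and was lower at -1.25 (adjusted p = 0.0326) for sh1-*TUG1* and -1.36 (adjusted p = 0.00691) for sh2-*TUG1*, the former not holding without sh-Con replicate 2 or sh1-*TUG1* replicate 1 or 2. *SLC11A1* (NRAMP1), the phagosomal metal transporter, was at -0.54 (adjusted p = 0.0665) and -0.96 (adjusted p = 0.0153). In the 4 tested genes of storage and chaperones 0 met the DEG rule in either line, beside 4.96% and 13.3% of all genes. *NCOA4*, the receptor that sends ferritin for breakdown, was at -0.22 (adjusted p = 0.00488) and -0.092 (adjusted p = 0.120), *PCBP2*, an iron chaperone, at 0.16 (adjusted p = 0.0138) and 0.21 (adjusted p = 0.00301), and *FBXL5*, the ubiquitin ligase that degrades IRP2, at 0.16 (adjusted p = 0.199) and 0.22 (adjusted p = 0.0909).

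Of 17 tested genes of hepcidin control, 1 was higher and 2 lower in sh1-*TUG1* by the DEG rule (17.6%, beside 4.96% of all genes), and 1 was higher and 4 lower in sh2-*TUG1* (29.4%, beside 13.3%). *HAMP*, the hepcidin gene, was at 2.20, 2.99 and 2.14 CPM in sh-Con, 4.83, 6.45 and 5.33 for sh1-*TUG1* and 1.9996, 2.54 and 2.82 for sh2-*TUG1*, which were 65 to 234 counts a library. Only sh1-*TUG1* was higher, by 1.18 (adjusted p = 0.00233) in edgeR's test, with 0.0089 (adjusted p = 0.979) in sh2-*TUG1* and -1.17 (adjusted p = 0.00077) between the lines. *BMP6*, the ligand that signals liver iron, was at means of 2.35, 0.908 and 1.39 CPM, with -1.37 (adjusted p = 0.00439) for sh1-*TUG1* and -0.75 (adjusted p = 0.0581) for sh2-*TUG1*. Known targets of BMP signalling include *ID1*, *ATOH8*, *SMAD6* and *SMAD7*, which did not all move together. *ID1* was at -0.27 (adjusted p = 0.00197) for sh1-*TUG1* and -0.96 (adjusted p = 3.4e-06) for sh2-*TUG1*. *ATOH8* was at -1.48 (adjusted p = 0.0163) and -1.30 (adjusted p = 0.0141), the calls of *ATOH8* not holding without sh1-*TUG1* replicate 1 or 2 in sh1-*TUG1* or without sh2-*TUG1* replicate 1 in sh2-*TUG1*. *SMAD6*, which also inhibits the path, was at -0.26 (adjusted p = 0.254) and -0.89 (adjusted p = 0.00384). *SMAD7* went the other way, at 0.16 (edgeR adjusted p = 0.169) and 0.29 (adjusted p = 0.0144). *TMPRSS6* (matriptase-2), the protease that restrains hepcidin, was at 2.99, 4.05 and 3.72 CPM in sh-Con, 4.19, 4.16 and 3.85 for sh1-*TUG1* and 1.11, 1.86 and 1.35 for sh2-*TUG1*. It was lower in sh2-*TUG1* at -1.32 (adjusted p = 0.00242), with 0.18 (adjusted p = 0.501) in sh1-*TUG1* and -1.50 (adjusted p = 0.000212) between the lines. *FURIN*, the convertase that processes hepcidin and other precursors, rose in both lines, by 0.34 (adjusted p = 0.000735) and 1.03 (adjusted p = 5.64e-07), and from 271 to 342 and 553 CPM. In sh1-*TUG1*, then, *HAMP* was higher and *BMP6* lower, both at low levels.

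**Figure D5:**
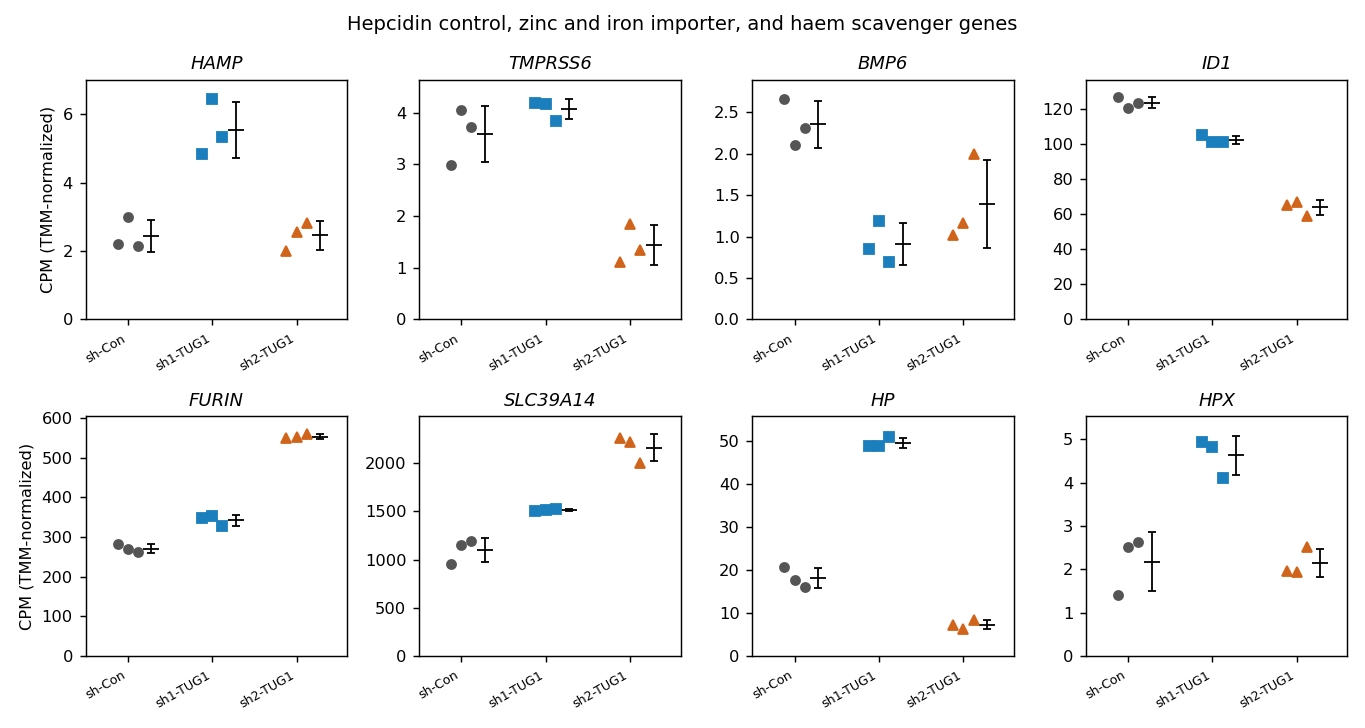
Levels of 8 further genes in CPM (linear axes from 0, 1 range a panel) in the libraries of sh-Con (circles), sh1-*TUG1* (squares) and sh2-*TUG1* (triangles), with group means and SD. *HAMP*, *HP* and *HPX* are higher in sh1-*TUG1* than in the other groups, *TMPRSS6* is lower in sh2-*TUG1*, and *FURIN* and *SLC39A14* are highest in sh2-*TUG1*.

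In the mitochondria, 0 of 26 genes of iron import and iron-sulfur cluster assembly met the DEG rule in sh1-*TUG1* (beside 4.96% of all genes). In sh2-*TUG1* 1, *BOLA3*, was lower (3.85%, beside 13.3%). *BOLA3*, which helps pass clusters to lipoate-dependent enzymes, was at -0.13 (adjusted p = 0.285) for sh1-*TUG1* and -0.84 (adjusted p = 0.000121) for sh2-*TUG1*. By the adjusted p, 5 were higher and 1 lower for sh1-*TUG1*, against 4 higher and 5 lower for sh2-*TUG1*, with medians of 0.071 and 0.057. These were 23.1% and 34.6% of the list, beside 24.8% and 43.5% of all genes. The ends of this list were *SLC25A37* (mitoferrin-1, 0.27, adjusted p = 0.0381) and *ABCB8* (-0.22, adjusted p = 0.0496) in sh1-*TUG1*, calls of adjusted p that most left-out libraries removed, and *FDX2* (0.28, adjusted p = 0.0708) and *BOLA3* in sh2-*TUG1*. *ABCB8* was at -0.33 (adjusted p = 0.0135) in sh2-*TUG1*, a call lost without sh2-*TUG1* replicate 1.

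Of 22 tested haem genes, 2 were higher for sh1-*TUG1* by the DEG rule (9.09%, beside 4.96% of all genes) and 3 lower for sh2-*TUG1* (13.6%, beside 13.3%). By the adjusted p 5 were higher and 2 lower for sh1-*TUG1*, against 1 higher and 10 lower for sh2-*TUG1*. The shares that passed the adjusted p were 31.8% and 50%, beside 24.8% and 43.5% of all genes. Haptoglobin (*HP*), which binds free haemoglobin, was at 20.7, 17.8 and 16.1 CPM in sh-Con, 48.8, 48.8 and 50.8 for sh1-*TUG1* and 7.26, 6.29 and 8.42 for sh2-*TUG1*. It was the 1 gene of all 86 that met the DEG rule in opposite directions, at 1.44 (adjusted p = 4.56e-06) for sh1-*TUG1* and -1.31 (adjusted p = 6.45e-05) for sh2-*TUG1*. Hemopexin (*HPX*), which binds free haem, rose in sh1-*TUG1* by 1.08 (adjusted p = 0.0104) and was at -0.029 (adjusted p = 0.943) in sh2-*TUG1*, on means of only 2.18, 4.63 and 2.14 CPM. In haem synthesis, *ALAD* was at 0.28 (adjusted p = 0.00667) and -0.62 (adjusted p = 6.04e-05), and *PPOX* at -0.082 (adjusted p = 0.737) and -0.64 (adjusted p = 0.0141), the latter not holding without sh-Con replicate 2 or sh2-*TUG1* replicate 2. *HMOX1*, haem oxygenase 1, was lower in sh1-*TUG1* (-0.41, adjusted p = 0.000418) and at -0.042 (adjusted p = 0.587) in sh2-*TUG1*. The haem exporter *ABCG2*, the highest of the list in sh2-*TUG1*, was at 0.31 (adjusted p = 0.0133), which was also lost without sh2-*TUG1* replicate 1.

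Ceruloplasmin is loaded with copper in the secretory path by *ATP7B*, so copper genes were included. Of 10 tested, 1 was higher by the DEG rule in each line (10%, beside 4.96% and 13.3% of all genes). This was the same gene, *SLC31A2* (CTR2), at means of 1.21, 2.40 and 3.11 CPM. It was at 1.00 (adjusted p = 0.0306) in sh1-*TUG1*, where it fell to 0.65 and lost the call without sh1-*TUG1* replicate 3 (it was also lost without sh-Con replicate 2 or 3), and 1.36 (adjusted p = 0.000927) in sh2-*TUG1*. *ATP7B* was at 0.30 (adjusted p = 0.000791) and 0.37 (adjusted p = 0.000332), and *ATP7A*, the other copper pump, at -0.31 (adjusted p = 0.076) in sh1-*TUG1*. The copper chaperone *ATOX1*, which feeds both pumps, was at 0.063 (adjusted p = 0.730) in sh1-*TUG1* and was lower in sh2-*TUG1* (-0.47, adjusted p = 0.00298).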

How the data were processed

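RNA-seq was done on 9 HepG2 libraries, with 3 for the control line sh-Con and 3 for each knockdown line. Per the submitters' processing notes, HISAT2, StringTie and GRCh38 were used, with versions and strand setting not given in the sources used here. The authors deposited raw counts and FPKM per gene in 1 table for each knockdown line, both with the same sh-Con counts. FPKM, and the columns with the authors' own log2 fold changes and FDR, were not used. Tests used edgeR 4.0.16 in R 4.3.3 (TMM, glmQLFit, glmQLFTest), with Benjamini-Hochberg adjustment over all genes of a table. Each line was fitted with the 6 libraries of its table, and the lines were compared in a fit of all 9 libraries over 12854 genes. The default filter for low counts removed 0 genes, the lowest total over a table's 6 libraries being 152 and 140. Loci without an Ensembl identifier held 1.46% and 1.41% of counts. Pairs of libraries of the same group differed by 6.41 to 25.8 times the sampling noise (chi-square per degree of freedom), so none was counted as a repeat. The test was checked on simulated data. The members and lists were chosen with earlier results of these data known. Wider genes were named when past the DEG rule in at least 1 line or at an end of their list. *EPAS1*, *ATP7B*, *SMAD7* and the genes that overlap members were named after their values were seen. If the libraries of a group come from 1 culture, p-values measure only technical spread.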

Additional observations from a re-analysis of the deposited data

Results flagged for a closer look

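For 12 genes of the wider lists the difference between the knockdown lines met the DEG rule in the fit of 9 libraries (edgeR adjusted p under 0.05). They were 14.0% of the 86 tested, beside 10.6% of all genes. Values are log2(fold change) of sh2-*TUG1* against sh1-*TUG1*. *HP* (haptoglobin) had the largest, -2.75 (adjusted p = 5.34e-08), and was the 1 gene that met the DEG rule against sh-Con as higher in one line and lower in the other. *HAMP* (hepcidin, -1.17, adjusted p = 0.000770) and *HPX* (hemopexin, -1.11, adjusted p = 0.00290) were raised in sh1-*TUG1* only, and *TMPRSS6* (-1.50, adjusted p = 0.000212) was lowered in sh2-*TUG1* only. *ID1* (-0.68, adjusted p = 1.90e-06), *SMAD6* (-0.63, adjusted p = 0.00945) and *BOLA3* (-0.71, adjusted p = 5.71e-05) were further below sh-Con in sh2-*TUG1*. *ALAD* (-0.90, adjusted p = 4.96e-07) was above sh-Con in sh1-*TUG1* and below it in sh2-*TUG1*, and *FURIN* (0.69, adjusted p = 4.82e-07) was further above sh-Con in sh2-*TUG1*. *STEAP2* (0.68, adjusted p = 8.4e-07), *CYBRD1* (-0.60, adjusted p = 0.0397) and *HFE* (-0.67, adjusted p = 0.0494) met the rule between the lines but against sh-Con in neither. They were named after their values were seen. *CYBRD1* and *HFE* were at low levels, with means in sh1-*TUG1* and sh2-*TUG1* of 2.68 and 1.76 CPM for *CYBRD1* and 4.31 and 2.71 for *HFE*. The libraries of the lines overlapped for *HFE*.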

How the results depend on the processing

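Counts of called genes are given for the 10 iron genes and then for the 86 further genes. With the adjusted p alone they were 6 and 30 for sh1-*TUG1*, 6 and 41 for sh2-*TUG1* and 3 and 39 between the lines, and tested against a fold change of 1.5 they were 1 and 1 for sh1-*TUG1*, with 5 further genes called for sh2-*TUG1* and 3 between the lines. Scaled by library size alone, 1 of the 10 (*CP*) was called between the lines. Leaving out 1 library gave 2 to 3, 1 to 2 and 0 to 2 of the 10 and 5 to 7, 12 to 14 and 10 to 13 of the 86. Without sh-Con replicate 1, *TFRC* was added in sh2-*TUG1*, and without sh2-*TUG1* replicate 3, *CP* and *TFR2* were called between the lines. Same-numbered libraries did not deviate together (r -0.194 to 0.0499, with 1 of 18 best matches to the same number), and with replicate number as a block the counts were 2, 1 and 0 of the 10 and 7, 13 and 11 of the 86. With the 6 knockdown libraries alone *TFR2*, *FTH1* and *FTL* passed the adjusted p between the lines, with DESeq2 *FTH1*, and with library size alone *TFR2* and *FTL*. Under the block *TFR2* passed the adjusted p between the lines (0.000532), and *SLC25A37* and *ABCB8* lost it in sh1-*TUG1*. The cause of these changes was not tested.

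Directions that turned belonged to values near 0. Leaving out 1 library gave log2(fold change) of -0.0060 to 0.097 for *ACO1*, -0.11 to 0.074 for *FDX2* and -0.062 to 0.14 for *ATOX1* in sh1-*TUG1*. In sh2-*TUG1* it gave -0.095 to 0.29 for *TFR2*, -0.029 to 0.13 for *IREB2*, -0.11 to 0.18 for *HAMP* and -0.26 to 0.13 for *HPX*. Between the lines it gave -0.057 to 0.060 for *SLC40A1*, -0.37 to 0.18 for *SLC39A8*, -0.024 to 0.099 for *FBXL5* and -0.092 to 0.046 for *SLC25A37*. Library size alone gave -0.027 for *HAMP* in sh2-*TUG1* and -0.018 for *PCBP2* and -0.0090 for *FBXL5* between the lines, and the block gave 0.0047 for *HPX* in sh2-*TUG1*. No scaling moved the median of all genes by over 0.1, but library size alone lowered the share of higher genes among those past the adjusted p between the lines from 49.2% to 35.1%. Of the values of the 10 genes under other settings, 383 kept direction and side of the threshold, 18 gained it, 12 lost it and 7 turned.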
